A study of Mus musculus with 16 samples.

Results

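The cells described here came from mouse cortex and are named meningeal and perivascular fibroblasts. They are 86 of 24578 kept cell barcodes (0.350%), and the name was not tested for each of them. They were chosen by their own counts: a barcode needed 200 to 7000 detected genes, at least 3 summed unique molecular identifiers (UMIs, 1 per captured transcript) of Col1a1, Col1a2, Col3a1, Dcn, Lum and Ogn, and at most 1 UMI over 9 genes of other classes (P2ry12, Cx3cr1, Aqp4, Mag, Mog, Cldn5, Syt1, Acta2 and Myh11). The levels of the 6 collagen and proteoglycan genes and the scarcity of the 9 others are therefore no findings, and every gene level in these barcodes is given as a description. The tissue was cortex of 17-month-old THY-Tau22 mice, which carry a human 4-repeat tau transgene with the G272V and P301S mutations driven in neurons by a Thy1.2 promoter, and of wild-type (WT) littermates. All animals came from crosses of heterozygous THY-Tau22 males with C57Bl6/J females. Fresh tissue was dissociated and captured by Drop-seq, in which the transcripts of a droplet share a cell barcode and each carries a UMI. Of the 16 labelled libraries, 2 were left out: the tables of the third WT male and the fourth THY-Tau22 male hold 2952 barcodes in common, out of 3000 each, under opposite genotypes. This left 3 libraries of WT and 3 of THY-Tau22 males, and 3 of WT and 5 of THY-Tau22 females. Each library is labelled as a mouse of its own, but 1 animal number appears in 2 titles, those of the first WT male and the first THY-Tau22 female, so p-values measure the spread between libraries. MB22 stands in the titles of 2 of the 14 libraries (WT female replicate 3 and THY-Tau22 female replicate 5) and MB21 in the other 12, and the meaning of these codes is not given. How much meninx was left on the dissected cortex is not given in the sources used here.

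Fibroblasts of the brain lie in the dura, in the arachnoid and pial layers of the leptomeninges, and along larger vessels beneath the pia. They lay down fibrillar collagens, small leucine-rich proteoglycans and basement membrane, supply growth factors and retinoic acid to the brain surface, and in the arachnoid help to form a barrier between blood and cerebrospinal fluid. They are few in dissociated cortex, so their numbers are small in most single-cell studies of the parenchyma.

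The 14 libraries held between 1121 and 2526 kept barcodes, with a median of 429 to 736.5 UMIs per barcode. The fibroblast barcodes were deeper, with a median of 1278.5 UMIs and a range of 405 to 20401, and together held 216844 UMIs. The 5 deepest of them held 35.3% of these UMIs. No fibroblast barcode sequence occurred in more than 1 of the 14 libraries. Between any pair of these libraries, 3 to 12 barcodes were shared among all barcodes of the tables.

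The 86 barcodes were unevenly spread over the mice. WT male replicates 1, 2 and 4 held 11, 0 and 2, and THY-Tau22 male replicates 1 to 3 held 7, 11 and 8. WT female replicates 1 to 3 held 6, 0 and 3, and THY-Tau22 female replicates 1 to 5 held 2, 3, 20, 4 and 9. No fibroblast barcode was found in 2 WT libraries, where a limit of 3 counts allows a share of up to 0.167% in WT male replicate 2 and 0.268% in WT female replicate 2, and exact 95% binomial intervals reach 0.205% and 0.329%. THY-Tau22 female replicate 3 alone gave 23.3% of all members. In the males, fibroblasts were 0.521% ± 0.0788 (SD, n = 3) of kept barcodes in THY-Tau22 and 0.192% ± 0.222 (SD, n = 3) in WT mice. In an exact two-sided permutation test over libraries, this difference of 0.329 percentage points gave p = 0.20, and 3 against 3 libraries cannot go below 0.10. In the females, the shares were 0.401% ± 0.347 (SD, n = 5) in THY-Tau22 and 0.185% ± 0.221 (SD, n = 3) in WT mice (difference 0.216 points, exact permutation p = 0.464), and without THY-Tau22 female replicate 3 the difference was 0.0696 points. Averaged over the sexes, the THY-Tau22 share was 0.272 percentage points higher than the WT share (exact permutation test within sex over 1120 assignments, p = 0.0661), which did not pass the 0.05 level. The groups overlapped in the females, and in the males the lowest THY-Tau22 library (0.430%) lay just under the highest WT library (0.435%). Without the 2 MB22 libraries the difference over both sexes was 0.255 points (exact permutation p = 0.163). A difference in these shares can come from the number of these cells in the cortex or from how much meninx a dissection kept, and these cannot be told apart.

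**Figure D1:**
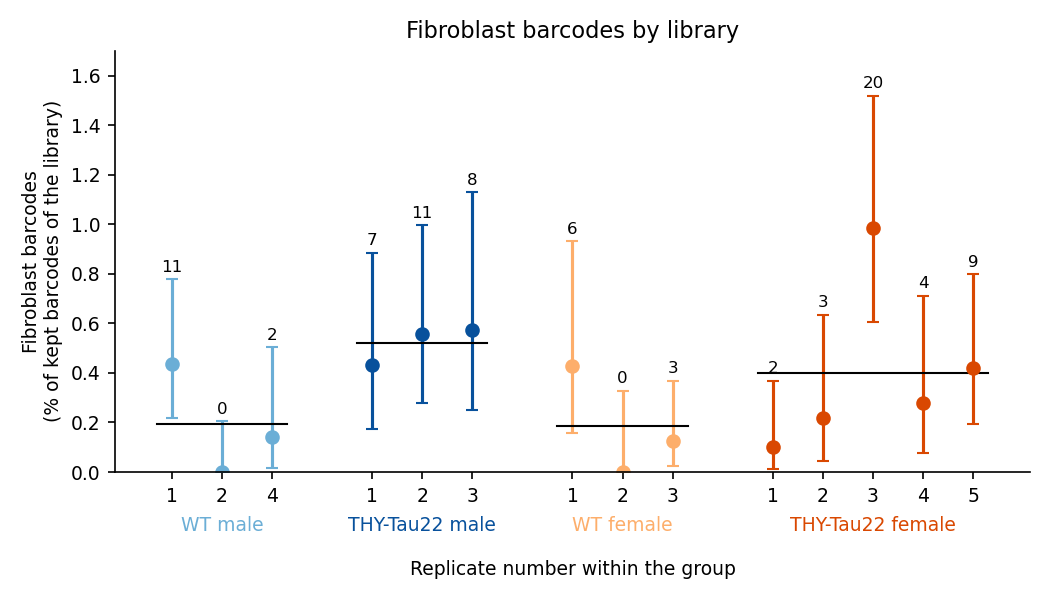
Share of fibroblast barcodes in each of the 14 libraries, in percent of the barcodes kept in that library. Points are libraries with exact (Clopper-Pearson) 95% binomial intervals, which cover counting error only, the number over each is its count of fibroblast barcodes, and the black lines are group means. The highest share, 0.986%, is THY-Tau22 female replicate 3 with 20 barcodes, and 2 WT libraries are at 0.

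The rule was met mainly through Col1a2 and Ogn. Col1a2, which encodes a chain of type I collagen, gave 402 UMIs in 81 of the 86 barcodes, and Ogn, a small leucine-rich proteoglycan, gave 253 UMIs in 59. Col1a1, the other chain of type I collagen, gave 44 UMIs in 28 barcodes. Dcn (decorin) gave 56 UMIs in 24, Col3a1 30 UMIs in 19 and Lum (lumican) 4 UMIs in 3. Col1a2 and Ogn alone would have brought 70 of the 86 over the minimum of 3. Of the 5 markers given for these cells (Col1a1, Col1a2, Dcn, Ogn and Igfbp6), at least 3 were detected in 44 barcodes, 2 in 35 and 1 in 7. Igfbp6, an insulin-like growth factor binding protein and the only one of the 5 that the rule did not use, gave 138 UMIs in 39 barcodes. Its level was 640 ± 289 CPM (counts per 1000000 UMIs; SD over the 7 libraries with at least 5 fibroblast barcodes) against 4.22 CPM in all other kept barcodes.

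Around the threshold the contents of the barcodes changed. With at most 1 UMI of the other classes, 19 barcodes had a sum of exactly 3 and 38 had a sum of 2. Prg4 stood at 4960 CPM in those with a sum of 3 and 1541 in those with 2, and Mgp at 3222 and 1515. Rgs5, a pericyte gene that the rule did not use, stood at 36.2 CPM at a sum of 3 and 2299 at a sum of 2. Another 31 barcodes reached the sum of 3 but held more than 1 UMI of the other classes, among them Cldn5 of endothelial cells in 22, Myh11 of smooth muscle in 21 and Acta2 in 17. Seen from 4 genes chosen after the values were seen, 127 kept barcodes held at least 3 summed UMIs of Prg4, Nov, Slc26a7 and Igfbp6. Of these, 65 were members, 59 had fewer than 3 UMIs of the rule genes and 3 were removed by the limit on other classes. The 2 sets thus overlap: the rule took in only part of the barcodes with these genes, and 65 of the 86 members are among the 127.

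Prg4 and Mgp stood higher than any collagen gene. Levels here and in the following paragraphs are CPM of transcripts counted once at their 3′ ends, so gene length does not enter, as the mean ± SD over the 7 libraries with at least 5 members. They are set against the pooled level of all other kept barcodes. Prg4 encodes lubricin, a mucin-like protein of sliding surfaces. In WT male replicate 1 it stood at 4698, in THY-Tau22 male replicates 1 to 3 at 3669, 6286 and 6366, in WT female replicate 1 at 6630, and in THY-Tau22 female replicates 3 and 5 at 7348 and 7762. Its mean of 6108 ± 1448 was 295 times the 20.7 in other barcodes, and all 7 libraries were high. Mgp, an inhibitor of calcification, stood at 5787 ± 758 against 115, with values from 4467 to 7005. Igfbp5 was far more variable, at 4313 ± 3352 against 53.7. It ran from 1066 in THY-Tau22 male replicate 2 to 10734 in WT female replicate 1.

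Secreted regulators came next. Nov (Ccn3), a matricellular protein, stood at 1837 ± 845 against 12.6, and Rspo3, an R-spondin that amplifies Wnt signalling, at 1777 ± 229 against 12.8. Rspo3 ran from 1465 to 2157 and Nov from 1078 to 3436. Tnfrsf11b (osteoprotegerin), a decoy receptor, reached 401 ± 154 against 1.31 and Ptgis, the prostacyclin synthase, 410 ± 239 against 2.91. Npr3, the clearance receptor for natriuretic peptides, stood at 519 ± 360 against 3.77. Bmp4, a bone morphogenetic protein, stood at 418 ± 214 against 3.82. Each of these genes was above the level of other barcodes in all 7 libraries, except Bmp4, which was at 0 in 1 of them.

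Membrane transporters formed the next group. Of 17 solute carriers and transporters of brain barriers, 13 were higher in the 7 libraries' mean than in other barcodes and 9 by at least 10 times. Among all 3298 genes with a UMI in at least 10% of the members, 2287 were higher and 184 by at least 10 times. The lists also count genes below that 10%, which 8 of the 17 carriers reached, so the 2 shares are of unlike sets. The highest were Slc38a2, an amino acid carrier (2206 ± 446 against 199.8), Slc4a10, a sodium-coupled bicarbonate carrier (1373 ± 369 against 26.1), and the sulfate carrier Slc26a2 (1146 ± 368 against 31.3). The anion exchanger Slc26a7 stood at 650 ± 226 against 3.42, and Slc47a1, an exporter of organic cations, at 383 ± 171 against 2.45. Slc26a7 was at 158 in WT female replicate 1 and between 679 and 852 in the other 6 libraries.

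The collagens other than the rule genes were low. Of 17 collagen genes, 9 were higher than in other barcodes and 7 by at least 10 times, with 7 of the 17 found in at least 10% of members. Over all genes found in that share of members, 2287 of 3298 were higher and 184 by at least 10 times. Col6a2 (251 ± 107 against 1.77) and Col6a1 (220 ± 184 against 4.51) were highest, followed by Col12a1 (218 ± 332, with 947 in WT female replicate 1) and Col8a1 (211 ± 135 against 3.25). Biglycan, Bgn, a proteoglycan related to decorin, stood at 248 ± 78.0 against 8.28. Of 12 basement membrane genes, 8 were higher, near that share over all genes, and 1 by at least 10 times. Of the 12, 5 were found in at least 10% of members, and Lama1 had no UMI. Postn and Tnc, matricellular genes known from fibrosis, were likewise at 0 UMIs. Timp1, an inhibitor of matrix proteases, gave 13 UMIs in 9 barcodes, and Fn1, fibronectin, 511 ± 256 against 73.9.

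Transcription factors of the meningeal lineage were detected in many members. Of 21 such factors in the tables, 17 were higher than in other barcodes and 10 by at least 10 times, with 15 found in at least 10% of members. Over all genes found in that share of members, 2287 of 3298 were higher and 184 by at least 10 times. Foxc1, a forkhead factor needed for meningeal development, had 93 UMIs in 35 barcodes, and its relative Foxc2 had 22 in 17. Foxp2 had 75 UMIs in 35 barcodes, Foxd1 64 in 31, Zic1 95 in 32 and Tbx15 46 in 21. Foxc1 was not confined to these cells, at 375 ± 159 against 228 in endothelial, 279 in pericyte and 343 in smooth muscle barcodes. Foxd1 stood at 308 ± 162 against 9.82, 66.1 and 74.5 in those classes.

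**Figure D2:**
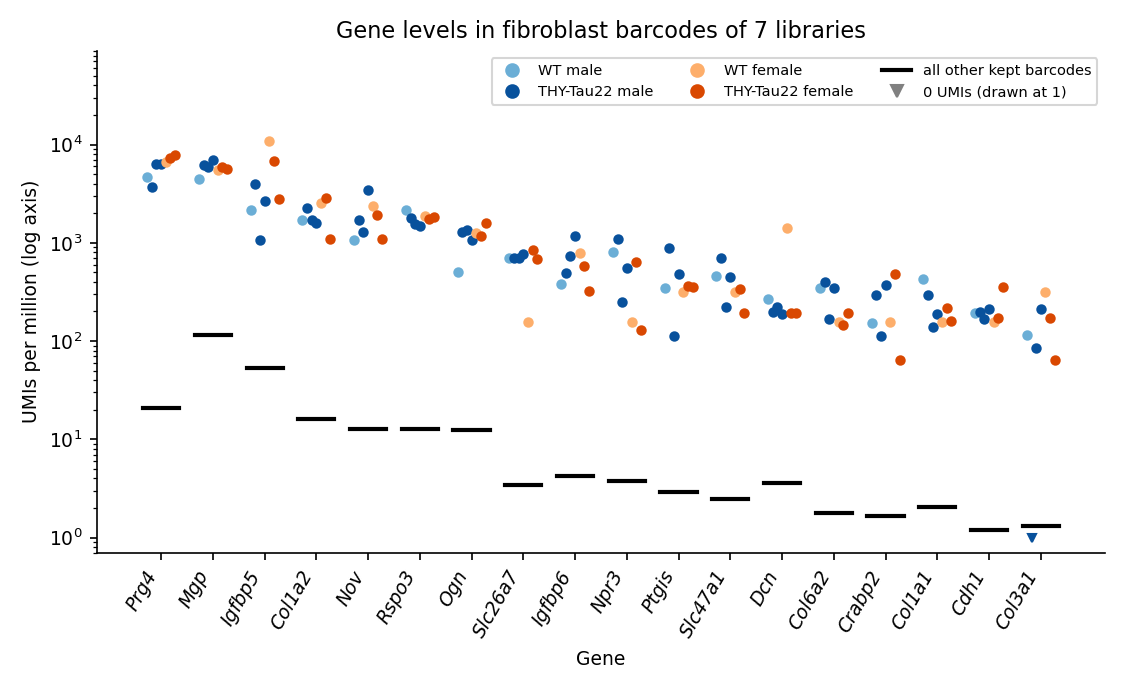
Levels of 18 genes (the rule genes apart from Lum, and others described in the text) in the fibroblast barcodes of the 7 libraries that held at least 5, in CPM on a log axis; each point is a library, coloured by group, and black bars give all other kept barcodes pooled. Prg4 and Mgp lie above 3600 in all 7, and Col3a1 is at 0 in 1 library.

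These levels differed from those of neighbouring vascular and glial classes also at equal depth. Each barcode was thinned at random to 400 UMIs, which left out no fibroblast and 1831 of 7165 microglia (median depth 531 UMIs). A Prg4 UMI then remained in 57.0% of fibroblasts (69.8% unthinned) and 0.131% of microglia (0.195% unthinned). The source of the UMIs in microglia was not tested. Mgp remained in 66.3% of fibroblasts (81.4% unthinned) and 0.544% of microglia (0.893% unthinned), but also in 17.8% of pericytes and 18.3% of smooth muscle barcodes, and so was shared with mural cells. Gja1, the gap junction protein connexin 43, was found in 20.9% of fibroblasts and 43.3% of astrocytes. The related connexin genes Gjb6 and Gjb2 had 88 and 109 UMIs in 30 and 36 fibroblast barcodes. The growth factor Ptn was no marker, at 73.3% of fibroblasts, 81.7% of pericytes and 80.8% of astrocytes. The immediate early genes Fos and Jun, which rise during tissue dissociation, were found in 50.0% and 59.3% of fibroblasts against 60.9% and 83.2% of microglia and 8.42% and 14.7% of astrocytes. All 18 genes of that response together made up 1.28% ± 0.491 (SD, n = 7 libraries) of fibroblast UMIs.

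**Figure D3:**
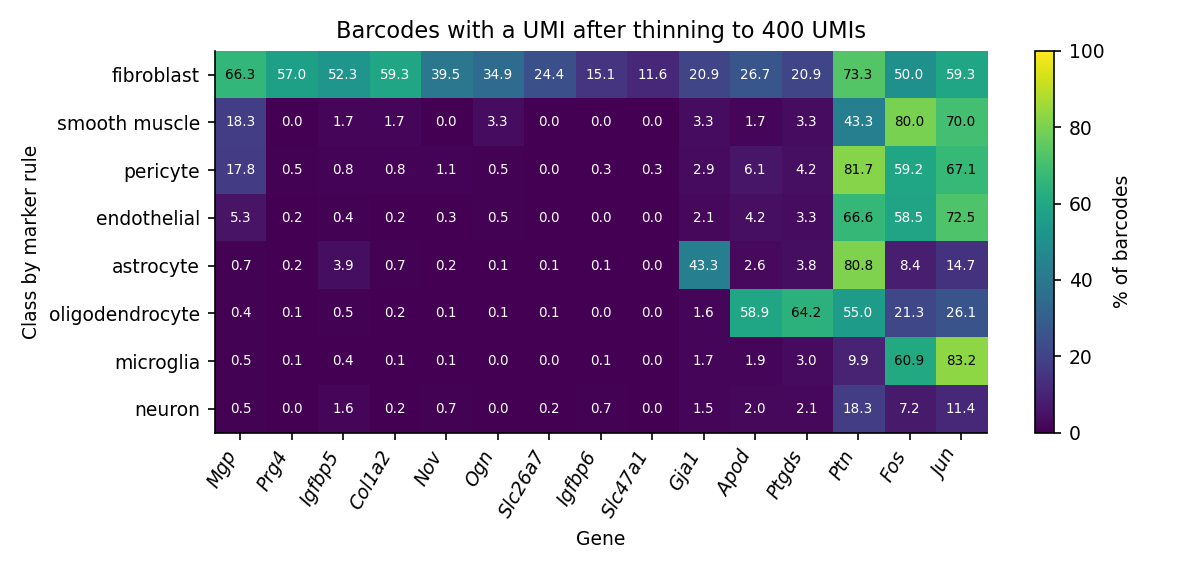
Percentage of barcodes with at least 1 UMI of 15 genes after thinning each barcode to 400 UMIs, for fibroblasts (top row) and 7 other classes found by marker rules; colour runs from 0 to 100%. Prg4, Nov, Slc26a7 and Slc47a1 are near 0 outside fibroblasts, whereas Mgp is also seen in mural classes and Ptn, Fos and Jun in several. Col1a2 and Ogn are fixed by the rules, which limit them in the 7 other classes.

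Lists of other cell classes that hold no gene limited by the rule summed to 0 or to less than in other barcodes. The 5 blood cell genes and the 4 T cell genes had no UMI. Of 6 border macrophage genes, Mrc1, Pf4, Cd163 and F13a1 were at 0, and Lyve1 and Cbr2 gave 9 UMIs in 6 barcodes. The means of these 2 over the 7 libraries were higher than in other barcodes, 1 of them by at least 10 times. The list summed to 41.5 CPM against 92.9. The pericyte genes Kcnj8, Abcc9 and Atp13a5 were at 0, and Rgs5 had 20 UMIs, 80.0% of them in 1 barcode. Vtn, also on that list, had 12 UMIs in 7 barcodes of the smaller kind described below and 1 UMI in the larger kind. The 6 pericyte genes summed to 157 CPM against 658 in other barcodes. All 6 ependymal and choroid plexus genes had a UMI, with 43 UMIs, or 198 CPM against 1098. Other lists are lower in part because the rule limits Mag and Mog, P2ry12 and Cx3cr1, or Aqp4. The 6 oligodendrocyte markers summed to 410 CPM against 23604 in all other barcodes, the 6 microglial markers to 189 against 4407 and the astrocyte list to 1743 against 4506, with Gja1 giving 213 and Gjb6 88 of its 378 UMIs and Aqp4 1. A barcode of WT female replicate 3 with 4711 UMIs held all 19 UMIs of Ccdc153, an ependymal gene.

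The lists of meningeal layers gave a mixed picture. Over all genes found in at least 10% of members, 2287 of 3298 were higher than in other barcodes. Among 7 dural genes, 6 were higher than in other barcodes, led by Mgp, Nov and Fxyd5, an ion pump regulator at 1119 ± 543 against 74.7. All 6 arachnoid genes had a higher mean, with Slc47a1 and the retinoic acid carrier Crabp2 in 34 and 27 barcodes. For Ptgds, in 36 barcodes, the mean of 2697 against 1065 rested on 1 library: it was above other barcodes in 3 of 7 libraries, and its mean was 1107 without THY-Tau22 male replicate 2. Of 7 arachnoid barrier genes, Cdh1 (E-cadherin) and Klf5 were in 23 and 20 barcodes, and Krt8 and Krt18 at 0. Of 6 pial genes only S100a6 and Mfap2 were higher, Ngfr and Lama1 were at 0 and Cxcl12 stood at 114 against 593. Col15a1, a collagen found in perivascular fibroblasts, gave 2 UMIs in 2 barcodes. Most pial list genes and Col15a1 were thus at or below the level of other barcodes, and the perivascular part of the name was not tested.

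Within the 86, a larger and a smaller kind could be told apart. Summed over Mgp, Prg4, Nov, Igfbp5 and Slc26a7, 72 barcodes held at least 3 UMIs, with a median of 30, and 14 held at most 2. All 5 genes were present in 33 of the 72, and at least 3 in 67. These genes were chosen after the values were seen, so the division is a description, with no test. The 72 held 197295 UMIs (median 1313.5 per barcode) and the 14 held 19549 (median 720).

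The 14 were marked by another set of secreted and transport proteins. Igf2, an insulin-like growth factor made by leptomeninges and choroid plexus, gave 80 UMIs in 11 of the 14 and 2 UMIs in 2 of the 72, or 4092 and 10.1 CPM. Slc7a11, the cystine-glutamate exchanger, was at 1177 and 10.1 CPM, and Slc6a13, a GABA and taurine carrier of the leptomeninges, at 563 and 5.07. Igfbp2 stood at 1483 and 55.8, and the lipocalin Apod at 7775 and 715. Dcn stood at 1177 and 167, but it is a rule gene through which a barcode could become a member. Itih5, which binds hyaluronan, had 28 UMIs in 8 of the 14 and 5 UMIs in 4 of the 72. It was no marker of the members as a whole, with a mean of 70.0 CPM against 189 in other barcodes, above them in 0 of 7 libraries, and it stood at 842 in endothelial and 610 in pericyte barcodes. Ptgds, the prostaglandin D synthase, was at 20922 and 2063 CPM but 48.9% of its UMIs in the 14 were in 1 barcode. Of genes that did not define the division, Rspo3, Slc47a1, Slc26a2 and Igfbp6 had no UMI in the 14. Others of high ratio were present: Crabp2 and Col12a1 had 2 UMIs each in the 14, or 102 CPM, against 279 and 127 in the 72. Col1a2 stood at 1891 CPM in the 72 and 1483 in the 14, and Ogn at 1161 and 1228. Members of both kinds were chosen by these rule genes, so their like levels are no finding. Igf2 and Mgp occurred in 13 and 70 of the 86 barcodes and together in 2.

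The smaller kind was not evenly divided among mice. All 3 members of WT female replicate 3 belonged to it, and 1 of 2 in WT male replicate 4 and in THY-Tau22 female replicate 1. In WT female replicate 3, 1 of the 3 had 4711 UMIs, 79.3% of that library's fibroblast UMIs, and was counted here only by its lack of the 5 genes: it had no UMI of Ptgds, Apod, Igf2 or Igfbp2 and all the Ccdc153 UMIs. In the 7 libraries with at least 5 members the smaller kind held 1 or 2 barcodes each. By this count it gave 100% of the fibroblast UMIs in WT female replicate 3, 47.3% in THY-Tau22 female replicate 1 and 42.7% in WT male replicate 4, and between 0% and 13.7% in the other 9 libraries. The barcode with most of the Rgs5 UMIs was also among the 14.

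**Figure D4:**
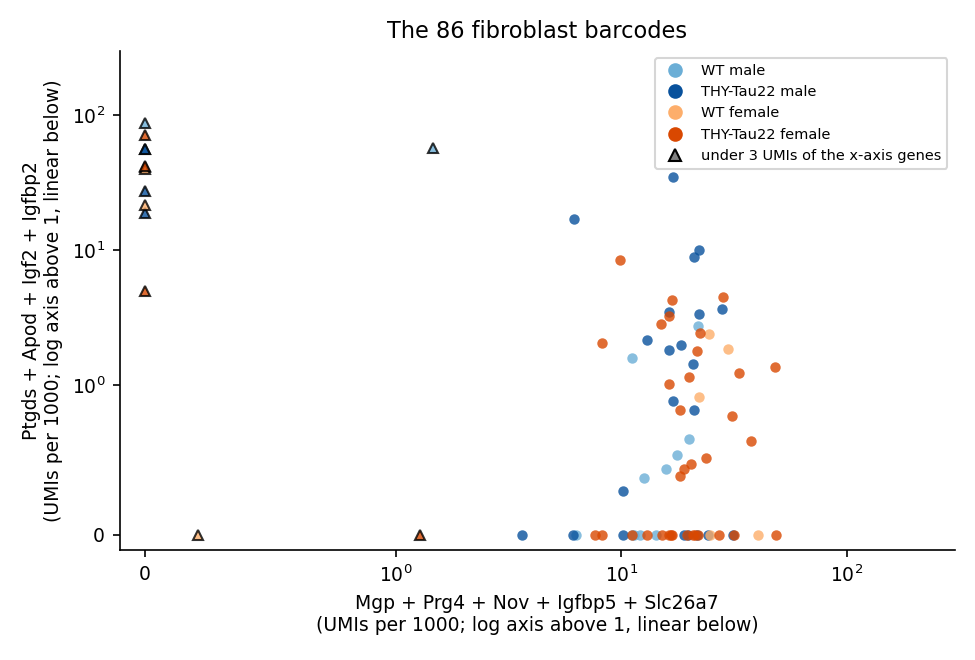
The 86 fibroblast barcodes by their summed UMIs of Mgp, Prg4, Nov, Igfbp5 and Slc26a7 (x axis) and of Ptgds, Apod, Igf2 and Igfbp2 (y axis), each per 1000 UMIs of the barcode, on axes that are logarithmic above 1 and linear below. Colours give the groups and triangles the 14 barcodes with under 3 UMIs of the x-axis genes; 11 of these have none of them.

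The genes that varied most among members beyond counting noise included several that marked the smaller kind. By the variance of Pearson residuals under a Poisson model with depth, which is 1 for pure counting noise, the highest included Ptgds (74.6), Apod (29.0), Malat1 (19.8), Igf2 (19.5), Itih5 (17.0), Gm42418 (14.7), Igfbp5 (12.3), Acbd3 (10.3) and Sparcl1 (9.03). Malat1, a nuclear RNA, was in all 86 barcodes. Gm42418 overlaps ribosomal RNA repeats, so its counts are uncertain.

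Whether these cells differed with the tau transgene was tested on UMIs summed per library. Only 7 libraries held at least 5 members, with 1 WT library of each sex among them, so the fit was made with the 12 libraries that held at least 2 (2 WT and 3 THY-Tau22 males, 2 WT and 5 THY-Tau22 females). It used edgeR's quasi-likelihood test on 188 genes that passed its filter on low counts. Calls needed an adjusted p (Benjamini-Hochberg) below 0.05 together with a log2 change of 0.5 or more in either direction. In males 0 of 188 genes were called (0%; 14 with an unadjusted p below 0.05), in females 0 (0%; 20), and for the sex by genotype interaction 0 (0%; 10). DESeq2 likewise called 0 in each of these. As the mean of the sexes 2 were called (1.06%; 21 by the unadjusted p), both lower in THY-Tau22 mice, and DESeq2 called 1 of them, Apod. Counts were simulated on these 188 genes, with 94 changed and 1 spread for all genes. Over both sexes the fit recovered 19.1% of genes changed by a log2 fold of 1 and 91.5% of those changed by 2. In males it recovered 3.19% and 53.2%, and in females 0% and 64.9%. Changes of up to a log2 fold of 1 would thus mostly have been missed. The simulation did not copy the unlike make-up of the libraries, so recovery in the real counts can be lower.

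The 2 genes were Itih5 and Apod. Itih5 stood at 154 and 6410 CPM in WT males (replicates 1 and 4), and at 99.2, 0 and 26.6 in THY-Tau22 males. In WT females it stood at 0 and 2189 (replicates 1 and 3), and in THY-Tau22 females at 0, 0, 48.7, 0 and 162. The high values were thus those of 2 WT libraries with 2 and 3 barcodes, resting on 7 and 13 UMIs. In WT female replicate 3 the barcode with Ccdc153 held 2 of the 13 Itih5 UMIs and 0 of the 24 Apod UMIs, but most of the library's total. Its fitted log2 fold change over both sexes was −4.83 ± 1.11 (SE; edgeR adjusted p = 0.0362). Apod stood at 1887 and 13736 in WT males and 1190, 1684 and 1465 in THY-Tau22 males. In females it stood at 3473 and 4041 in WT mice and 2347, 336, 560, 354 and 518 in THY-Tau22 mice. The groups did not overlap within either sex, and its log2 fold change was −2.15 ± 0.50 (SE; edgeR adjusted p = 0.0362). Without that barcode both were still called (−4.79 and −2.24, edgeR adjusted p of 0.0101 and 0.0257). Without WT female replicate 3 the Itih5 change was −0.45 (edgeR adjusted p = 0.960) and the Apod change −1.64 (edgeR adjusted p = 0.273), and 0 genes were called. Among the libraries of the MB21 titles alone, Itih5 was at −1.03 and Apod at −1.57 (edgeR adjusted p of 0.986 and 0.638), again with 0 called. Without WT male replicate 4, Itih5 was at −3.35 and Apod at −1.66 with 0 called, and 0 were called without THY-Tau22 male replicate 2 or 3 or THY-Tau22 female replicate 2, 3 or 5. Leaving out THY-Tau22 male replicate 1 left 1 call, WT male replicate 1 gave 3 and WT female replicate 1 gave 6.

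Apod is also a gene of oligodendrocytes, at 3424 CPM in that class. The 6 oligodendrocyte markers, 5 of them with a UMI and Mog at 0, summed to 0 to 308 CPM in the WT male libraries, 253 to 793 in THY-Tau22 males, 337 to 947 in WT females and 168 to 1493 in THY-Tau22 females. The rule limits Mag and Mog in every member, and the part of these cells' RNA in the result was not tested.

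Both genes were more abundant in the smaller kind of member, which by the count above gave 42.7% and 100% of the UMIs in WT male replicate 4 and WT female replicate 3, and its part in the result was not tested. In the 9 libraries with at least 2 barcodes of the larger kind, with all their members summed, Apod was at −1.66 ± 0.39 (SE) over both sexes. With the larger kind alone in the same libraries, Apod was 0.56 ± 0.62 (SE) higher on the log2 scale in THY-Tau22 mice over both sexes. The division was drawn on these same data and leaves out the barcodes richer in Apod, so these 2 values do not test its part. Itih5 passed the filter in neither. Both fits were added after the data were seen, left out WT male replicate 4, WT female replicate 3 and THY-Tau22 female replicate 1, and so kept 1 WT library of each sex, which was assumed to vary like the other groups. They tested 1068 and 996 genes. In the fit of the larger kind, Ptgds in males was at a log2 fold change of 5.05 and Gm42418 for the interaction at −5.74. Of the Ptgds UMIs, 188 were in 1 barcode of THY-Tau22 male replicate 2 and 78 in 1 of replicate 3.

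The members were chosen by Col1a2, Ogn and Dcn, so their values of −0.11 ± 0.37 (SE), 1.18 ± 0.52 and −1.84 ± 0.68 over both sexes are a description only. Of genes the rule did not use, Prg4 differed by 0.58 ± 0.71, Mgp by 1.01 ± 0.65 and Igfbp5 by −0.20 ± 0.67, none of them called. With these errors the values do not show that the levels were alike. The other 2 genes with the smallest p over both sexes were mt-Co1, a mitochondrial oxidase subunit (1.94 ± 0.63, adjusted p = 0.383), and Zbtb20, a transcription factor (−1.44 ± 0.51, adjusted p = 0.394), neither of which passed. In females the 5 smallest p were those of Dbi (−3.08, adjusted p = 0.0809), Apod (−2.66, 0.0809), the rule gene Dcn (−2.84, given as a description), Slc26a7 (3.13, 0.186) and Itih5 (−4.31, 0.186), and in males those of mt-Co1 (3.14), Itih5 (−5.36), Rps14 (1.73), Gm5805 (2.16) and mt-Cytb (1.95), all with an adjusted p of 0.458. For the interaction, male minus female, they were Dbi (3.99), Ubb (3.14), Slc26a7 (−3.24), Gm5905 (3.21) and Nfe2l1 (−3.47), each at an adjusted p of 0.551. Dbi stood at 4546 CPM in WT female replicate 3, where all 27 of its UMIs were in the barcode with Ccdc153, and at 316 in WT female replicate 1.

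Most gene lists reached this fit with few members. The mitochondrially encoded mRNAs had 6 genes tested, 6 higher in THY-Tau22 mice over both sexes and 0 called, with a median log2 fold change of 0.91 against 0.27 for all 188 genes, 112 of which were higher. The immediate early and dissociation list had 7 tested, 4 higher and 0 called (median 0.37). The barrier solute carriers had 4 tested, 4 higher and 0 called (median 0.67). In males 1 of 4 was higher (median −0.14), in females 4 of 4 (1.45) and for the interaction 0 of 4 (−1.68). Over all 188 genes, 102, 103 and 105 were higher in these. WT female replicate 3, whose members were all of the smaller kind, had 0 UMIs of Slc26a7, Slc26a2 and Slc38a2 and 1 of Slc4a10. Its part in the female values was not tested. The secreted transport and prostaglandin proteins had 5 tested, 3 higher and 2 lower, with Apod called (median 0.0023).

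**Figure D5:**
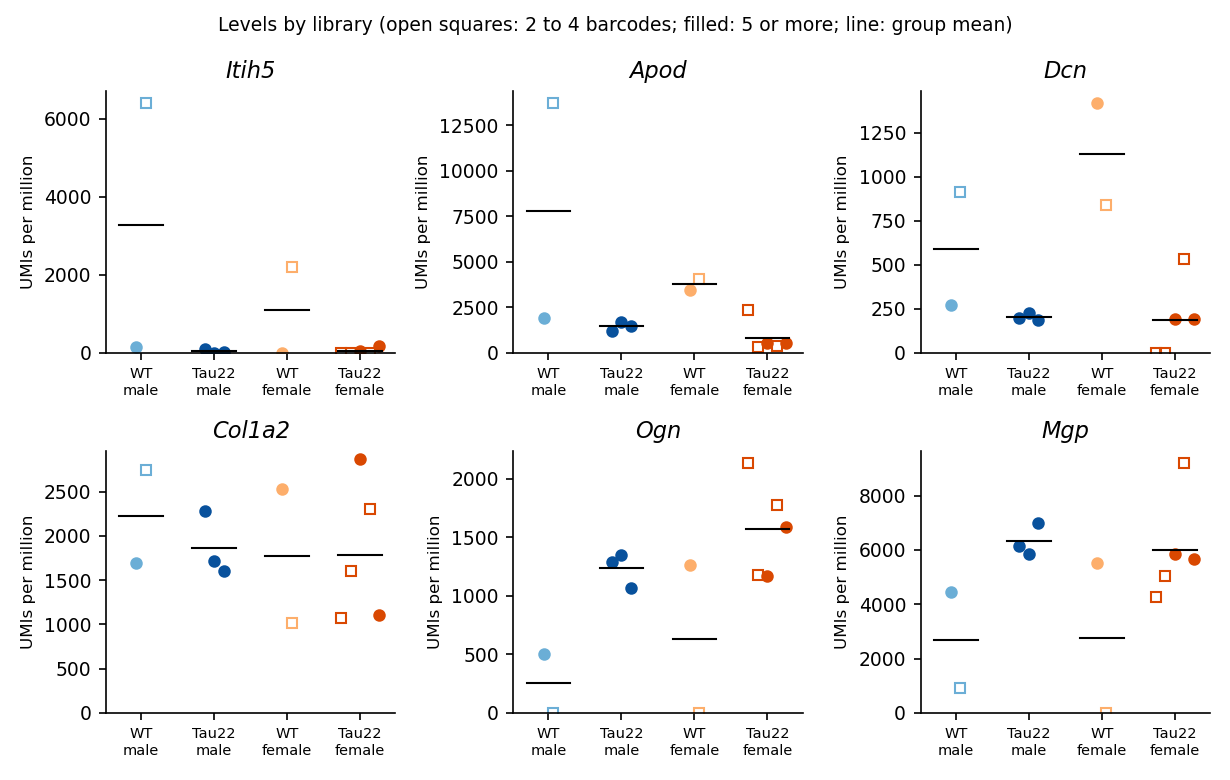
Levels of 6 genes in the summed fibroblast UMIs of the 12 libraries with at least 2 fibroblast barcodes, in CPM on linear axes that start at 0; filled circles are libraries with 5 or more fibroblast barcodes, open squares those with 2 to 4, and lines are group means. The highest Itih5 and Apod values are the open square of WT male replicate 4.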

How the data were processed

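The deposited tables held raw UMI counts per gene and cell barcode, 3000 barcodes per library, which the authors made with a Drop-seq pipeline. The labels name the build mm10, and no normalization was applied. Genes that share sequence with paralogs or pseudogenes are uncertain. The total ran from 1041675 to 2237505 UMIs per library. Members and gene lists were chosen with earlier results of these data known. The limit of 5% mitochondrial counts in the study's methods was run as an alternative only, and no doublet caller was run, since the limit on other-class genes stands in for it. Named genes were the rule genes and markers, 25 genes of highest ratio to other barcodes (at least 100 CPM and in 10% of members), the 10 most overdispersed (1 is not reported here), members of the lists at 100 CPM or more, and per contrast the called genes or the 5 of smallest p. Of the 25, those not described in the report are Lypd2, Tspan8, Prdm6, Tspan11, Eya2, Trabd2b, Itgbl1, Alx4, L1td1, Clec11a and Mpzl2.

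The sums per library went into edgeR 4.0.16 (R 4.3.3; TMM, filterByExpr, 1 mean per group, quasi-likelihood test, Benjamini-Hochberg), with DESeq2 1.42.0 as an alternative. The planned minimum of 5 barcodes per library left 1 WT library of each sex, so the designed contrasts could not be run with 2 libraries in every group. A minimum of 2, chosen after the data were seen, replaced it. Shares were compared by exact permutation in Python 3.11.15 with scipy 1.17.1. Other classes were found by marker rules of the same form, with at most 1 summed UMI of the fibroblast rule genes and the limited genes of other classes. The fit was tested on simulated data.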

Additional observations from a re-analysis of the deposited data

Results flagged for a closer look

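In the THY-Tau22 females (n = 5 libraries), the highest library stood apart from the others for 5 of 27 sets of values examined. The sets share the same libraries and some are of rule genes, so this count is a description only. For Ptgds the highest value was 25603 CPM against 997.6 in the next library, for Igf2 4694 against 219, and for Apod 2347 against 560. All 3 were in replicate 1, which held 2 fibroblast barcodes, 1 of each kind. For Slc26a7 the highest was 1593 against 853 and for the rule gene Col3a1 708 against 170, both in replicate 4, which held 4 barcodes. The Col3a1 value rests on 4 UMIs.

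The library deposited under 2 labels was outside every comparison, and it was rich in these cells. The table labelled WT male replicate 3 held 16 fibroblast barcodes, 0.844% of its kept barcodes, and the table labelled THY-Tau22 male replicate 4 held 16, or 0.778%. Of these, 15 had the same barcode in both tables. In both, 15 of the 16 barcodes belonged to the larger, Mgp-rich kind.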

How the results depend on the processing

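The higher THY-Tau22 share kept its direction in all 67 recomputed values. Over both sexes the exact permutation p fell under 0.05 by UMIs in place of barcodes (1.33 percentage points, p = 0.0232), with 0 UMIs of other-class genes (0.255, p = 0.0321) and with the library of 2 labels kept as THY-Tau22 male (0.304, p = 0.0408). Kept as WT male it gave 0.191 (exact permutation p = 0.251). The 5 deepest members, which held 35.3% of fibroblast UMIs, were all in THY-Tau22 libraries, and the deepest WT member held 6493 UMIs. The share by UMIs thus leans on few barcodes. Leaving out each library gave 0.199 to 0.333 over both sexes (exact permutation p 0.0371 to 0.164, under 0.05 without WT male replicate 1, WT female replicate 1 or THY-Tau22 female replicate 1), 0.233 to 0.451 in males and 0.0696 to 0.338 in females, the lowest without THY-Tau22 female replicate 3.

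The 2 calls over both sexes became 1 with DESeq2, with no filter on low counts, with all 16 libraries or with the 9 libraries of at least 2 larger-kind barcodes, and 0 with at least 5 barcodes per library (lone WT libraries were assumed to vary like the other groups), 2 or 5 UMIs of the rule genes, no limit on other-class genes, at least 300 detected genes, the larger kind alone, the library of 2 labels as WT, or without the 2 libraries of the MB22 titles. They stayed 2 without the Ccdc153 barcode. The fits with a minimum of 2 barcodes, the larger kind alone, its 9 libraries and no Ccdc153 barcode were chosen after seeing the data. In females 3 genes were called with 0 UMIs of other-class genes or 300 detected genes, and 1 with no filter, all 16 libraries or those 9. In males 1 was called with the larger kind alone or without the MB22 titles, and for the interaction 1 with the larger kind alone, those 9 libraries or at least 5 barcodes. Leaving out each library gave 0 to 6 calls over both sexes, 0 to 19 in females (19 without WT female replicate 1), 0 to 1 in males and 0 to 1 for the interaction. The cause was not tested. The minimum of 10 barcodes left no residual degrees of freedom and gave no value. The fits of the 2 groups of 1 sex called 0 genes.

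With the larger kind alone, Apod and Dcn reversed over both sexes (0.56 and 1.65). That fit leaves out the smaller kind, which is richer in both genes, and keeps 1 WT library of each sex. Dbi in females reversed at 5 barcodes (0.41), 5 rule UMIs (0.0091), the larger kind alone (0.24), those 9 libraries (0.36) and without the MB22 titles (0.27), and ran from −3.76 to 0.35 on leaving out libraries. Itih5 in females was 2.38 without the MB22 titles and ran from −5.52 to 3.56, Ubb for the interaction from −4.32 to 8.44 and Nfe2l1 from −7.19 to 3.01. Depth limits every value: of the 12 libraries with fibroblasts, 11 held at most 11 of them.

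No paired analysis was possible because the replicate numbers follow accession order and pair no animals.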
